A study of Mus musculus with 43 samples.

Results

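The machinery that makes a testis was followed here through 4 of its transcription factors in 15 groups of mouse gonads: the SoxE proteins Sox8, Sox9 and Sox10, and Dmrt1. Every probe set whose annotation names 1 of these 4 genes alone was taken, which gave 8 of the 45007 probe sets tested, for 4 of the 18184 genes represented: 1 for Sox8, 3 for Sox9, 3 for Sox10 and 1 for Dmrt1. All 8 are described, whether or not they passed a test.

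Whole gonads, dissected free of adjoining tissue, were hybridised to Affymetrix MOE430 v.2 arrays, 43 in all, with 1 mouse per array. At embryonic day 13 (E13) the groups were testes, Foxl2-null ovaries and control ovaries, which the labels call Foxl2+/- and the study's methods call wild-type littermates. At E15 they were Wnt4-null ovaries and Wnt4+/- control ovaries, on a strain mixture that differed from that of the other groups, and at E16 Foxl2-null, Foxl2+/- and wild-type ovaries. At birth (P0) they were testes, ovaries null for both Wnt4 and Foxl2, Wnt4-null ovaries that were Foxl2+/-, ovaries with the KitWvWv mutation that were also Foxl2-null, KitWvWv ovaries that were Foxl2+/-, Foxl2-null ovaries and wild-type ovaries. There were 3 arrays in every group but those of E15, which had 2, and these numbers limit the precision. The study's methods give the P0 testes as those of Wnt4-null animals, with partly defective differentiation, so every testis value of P0 carries that deletion, as do the Wnt4 Foxl2 double-null ovaries they are set against. Because the Wnt4-null and KitWvWv single mutants of P0 carried 1 Foxl2 deletion and the wild-type ovaries none, their comparisons with wild type also differ in that allele. The KitWvWv mutation is known to deplete germ cells.

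In each comparison given here, the targeted genes were lower in the ovaries null for them. The brightest Foxl2 probe set had signals of 0.606 to 1.23 in Foxl2-null ovaries of E13, against 5.31 to 10.1 in their controls. It had 0.682 to 0.826 in Wnt4 Foxl2 double-null ovaries, against 5.13 to 5.9 in Wnt4-null ovaries. In Kit Foxl2 double mutants it had 3.56 to 7.64, against 19.5 to 32.6 in Kit mutants. That double-mutant range overlaps those of the Wnt4-null ovaries and the E13 controls. A second, dimmer Foxl2 probe set was at 1.05e-05 to 0.000225 in Kit Foxl2 double mutants, against 0.338 to 0.586 in Kit mutants. Wnt4 had signals of 0.358 to 0.414 in Wnt4-null ovaries of E15, against 1.01 to 1.31 in their controls. Signals here are deposited intensities divided by the mean of all probe sets on the array, which was the same on every array; the median probe set had a signal of 0.18 to 0.295 on an array. Among marker lists, the summed signal of 7 Sertoli cell genes was 32.8 to 69 in testes and 3.71 to 43.7 in ovaries, the highest of these in Wnt4 Foxl2 double-null ovaries. The summed signal of 6 germ cell genes was 0.198 to 0.956 in Kit Foxl2 double-mutant ovaries and 1.48 to 7.85 in Kit mutant ovaries, against 36.5 to 66.5 in wild-type ovaries of P0. A summed signal of a list is not a cell count.

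In the XY gonad of mammals, Sry switches on Sox9 in the precursors of Sertoli cells, and Sox9 then holds its own level up together with Fgf9 and prostaglandin D signals and switches on Sertoli genes such as Amh. Sox8 and Sox10 belong to the same subgroup of HMG-box proteins and bind the same core sequence. Sox8 reinforces Sox9 in the testis, and Sox10 is best known from neural crest and glia. Dmrt1 carries a DM domain, is made both in germ cells and in Sertoli cells, and keeps the Sertoli fate after birth. In the ovary the forkhead factor Foxl2 and the signalling protein Wnt4 act on the opposite side.

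The level of Sox9 separated testes from ovaries at both stages. At E13 its brightest probe set, which stands for Sox9 wherever none is named, had signals of 3.56, 2.95 and 2.32 in testes, against 0.529, 0.224 and 0.379 in control ovaries. At P0 it had signals of 2.87, 2.39 and 2.87 in testes, against 0.789, 0.216 and 0.283 in wild-type ovaries. The lowest testis was well above the highest ovary at each stage. The log2 fold change of testis over ovary was 2.99 ± 0.36 at E13 (SE; adjusted p = 1.73e-07) and 2.85 ± 0.36 at P0 (adjusted p = 1.56e-07), in limma with adjustment over all probe sets. A probe set is called, or said to rise or fall, where its adjusted p was under 0.05. Log2 fold changes are on the scale of log2(signal + 0.01), which understates the change of dim genes. The other probe sets of Sox9 rose by 2.47 (the second in brightness) and 2.93 (the dimmest) at E13 and by 2.21 and 2.61 at P0. The change of the testis-ovary difference between the stages was -0.14 for the brightest probe set (95% interval -1.17 to 0.89, adjusted p = 0.918). Because whole gonads were measured, fewer cells of a type and less RNA per cell cannot be told apart in this or any later result.

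Expression of Sox8 also rose in testes, with a wider spread. Its signals at E13 were 1.69, 0.995 and 0.826 in testes, against 0.132, 0.175 and 0.216 in control ovaries. Its signals at P0 were 2.55, 0.701 and 1.51 in testes, against 0.307, 0.595 and 0.604 in wild-type ovaries. At P0 the weakest testis stood only just above the strongest ovary, while at E13 the groups lay far apart. The log2 fold change was 2.64 ± 0.37 at E13 (adjusted p = 2.58e-06) and 1.52 ± 0.37 at P0 (adjusted p = 0.002), and the change between stages was -1.12 ± 0.52 (adjusted p = 0.215).

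Of the 4 genes, Sox8 had a promoter sequence in the RefSeq-derived table used here, and it is shown because Sox8 was the member that moved in opposite directions in the double mutants. The 250 bases before its start lie at chr17:25570687-25570936 of GRCm38.p6 on the minus strand. Capitals mark GGGCGG, the GC box bound by Sp factors.
Sox8 promoter: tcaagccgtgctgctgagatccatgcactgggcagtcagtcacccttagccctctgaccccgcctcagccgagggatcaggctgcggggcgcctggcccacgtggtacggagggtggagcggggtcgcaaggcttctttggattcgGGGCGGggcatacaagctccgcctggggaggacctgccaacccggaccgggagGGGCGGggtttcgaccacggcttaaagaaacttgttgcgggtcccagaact
GGGCGG was found 2 times, at positions 147 and 200 of the window, and 32.7% of 32851 promoter windows of the same length hold it on either strand. The SOX core AACAAT, searched on both strands like the rest, was not in the window, and 9.42% of all windows hold it. The forkhead letters GTAAACA were not in it either, and 3.17% hold them. The Nr5a1 letters AAGGTCA were likewise not found, against 4.08% of all windows. The GATA letters AGATAA were not found, against 9.99%. No motif overlapped another.

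For Dmrt1 the difference between the sexes was called at P0 and not at E13. At E13 its signals were 3, 3.56 and 3.06 in testes, against 1.41, 2.22 and 3.81 in control ovaries. The groups overlapped, and the log2 fold change of 0.48 ± 0.49 (95% interval -0.51 to 1.47) did not pass the test (adjusted p = 0.713). At P0 its signals were 5.53, 4.26 and 4.26 in testes, against 0.0596, 0.0636 and 0.0252 in wild-type ovaries. That is a log2 fold change of 6.37 ± 0.49 (adjusted p = 3.41e-12), and the change between stages, 5.89 ± 0.69, passed its own test (adjusted p = 4.66e-07), the 1 called of 8 probe sets, where 2.63% of all were called higher. Stage and genotype cannot be told apart in this change, since the testes of P0 were Wnt4-null and the ovaries of E13 were labelled Foxl2+/-. Within the E13 controls, the array with the lowest Dmrt1 signal also had the lowest summed signal of germ cell genes, 16.9 against 30.4 and 31.5 in the other arrays, and its part in the comparison was not tested.

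Sox10 was dim throughout. The mean signals of its 3 probe sets were 0.119, 0.0718 and 0.0388, all below the median of 0.256 over probe set means, and 19 member values, all of Sox10, lay under the pseudocount of 0.01. Its brightest probe set still had signals of 0.239, 0.237 and 0.21 in testes of E13, against 0.151, 0.0869 and 0.0564 in control ovaries. The testes were all above the ovaries, by a log2 fold change of 1.23 ± 0.30 (adjusted p = 0.00687). At P0 it had signals of 0.185, 0.152 and 0.123 in testes, against 0.0785, 0.0781 and 0.0804 in wild-type ovaries (log2 fold change 0.86 ± 0.30, adjusted p = 0.0323). The E13 call was lost without the third control array (0.93, adjusted p = 0.111), and the P0 call without the first or second testis array or any 1 of the ovary arrays (adjusted p = 0.0627 to 0.124) and under quantile normalization (0.56, adjusted p = 0.0827). The dimmest Sox10 probe set had signals of 0.24, 0.297 and 0.163 in testes of E13, against 0.072, 0.00617 and 5.09e-06 in control ovaries. It was called higher in testes (adjusted p = 0.000603), but the size of the difference is set by the pseudocount, which the second and the last control array lay under. In testes it was lower at P0 than at E13 by a log2 fold change of -2.41 ± 0.65 (adjusted p = 0.00685). The second in brightness did not pass the test between testis and ovary at either stage (log2 fold change 0.35, adjusted p = 0.882 at E13 and 1.52, adjusted p = 0.095 at P0). Beside this, the summed signal of 5 neural crest and glia genes was 1.8 to 2.58 in testes of E13 and 0.871 to 1.77 in their control ovaries, with Foxd3, a defining factor of neural crest, at 0.0237 to 0.0284 in those testes and 0.0143 to 0.0276 in those ovaries. Erbb3, a receptor of glia and other cells, was at 1.13 to 1.83 in testes and 0.3 to 0.412 in ovaries. Their part in the Sox10 signal was not tested.

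Counted together, 6 of the 8 probe sets were called higher in testes at E13, where 2.97% of all probe sets were, and 6 of 8 at P0, where 13.4% were. None was called lower. Without the dimmest Sox10 probe set, 5 of the others were called higher at E13.

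**Figure D1:**
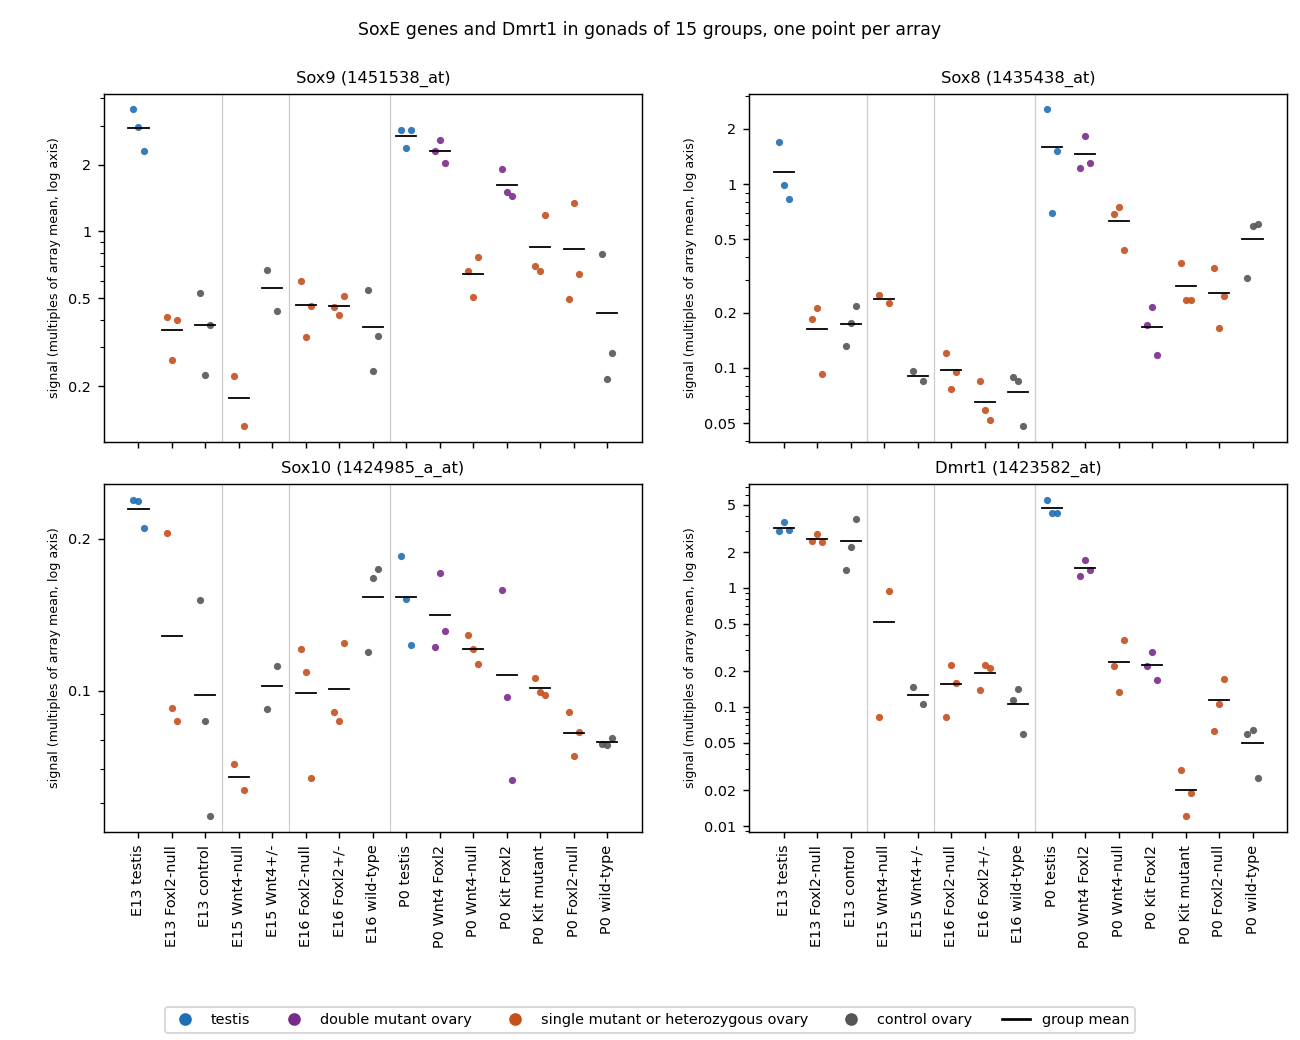
Signals of the brightest probe set of Sox9, Sox8, Sox10 and Dmrt1 on each of 43 arrays (vertical axis, multiples of the array mean, log axis, each panel with its own range), grouped by stage and genotype, with a bar at the group mean. Sox9 is high in testes and in the double mutants of P0, Sox8 is high in testes and in Wnt4 Foxl2 double-null ovaries, and Dmrt1 is high in every group of E13 and sits at 0.0252 to 0.0636 in wild-type ovaries of P0.

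Many genes downstream of these factors also differed between the sexes. Among genes in loops with Sox9 or downstream of it, 11 of 14 measured rose in testes at E13 and 1 fell, and 9 rose and 2 fell at P0. With each gene at its brightest probe set, 8.14% of all genes were called at E13 and 28.9% at P0. The median log2 fold change of the list was 3.57 at E13 and 1.98 at P0, against 0.02 and 0.17 over all probe sets. Dhh, the Sertoli cell hedgehog ligand, rose by 5.80 ± 0.36 at E13 (adjusted p = 1.2e-14), Ptgds, which makes prostaglandin D, by 6.24 ± 0.46 (adjusted p = 9.28e-13), and Hsd17b3, a testicular steroid enzyme, by 6.61 ± 0.47 (adjusted p = 4.85e-13). Amh, a direct target of Sox9, had signals of 0.612 to 0.626 in testes of E13 and 0.412 to 0.536 in their control ovaries, and of 0.414 to 1.01 over the groups of P0, with testes of P0 at 0.621 to 0.764 and wild-type ovaries at 0.426 to 0.776. The paper, which measured Amh by PCR, counts it among genes specific to the embryonic testis. Whether this probe set reports the Amh transcript was not tested, so its signals do not show that the sexes were alike in Amh.

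Genes that act before Sox9 did not move as a block. Of 11 measured activators of testis determination, 2 rose and 2 fell in testes at E13, and 1 rose and 2 fell at P0. The shares called are to be read against 8.14% of all genes at E13 and 28.9% at P0. At P0 Map3k4, a kinase upstream of Sry, was called at -0.53 (adjusted p = 0.0362) and was not under quantile normalization (-0.42, adjusted p = 0.105). Wt1, a zinc finger factor of the early gonad, was lower in testes by log2 fold changes of -0.74 ± 0.14 at E13 (adjusted p = 0.000263) and -0.95 ± 0.14 at P0 (adjusted p = 1.93e-06). Of 10 ovarian antagonists, 7 fell at each stage, among them Foxl2 (-6.10 ± 0.51 at E13), the activin antagonist Fst (-5.75 ± 0.33) and Runx1, a factor of ovarian supporting cells (-3.92 ± 0.26). Ctnnb1, from the same list, went the other way at P0. It was called higher in testes at 0.31 (adjusted p = 0.0136) and was not under quantile normalization (0.12, adjusted p = 0.32).

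The wider families were counted in the same way, against the same shares of all genes, 8.14% at E13 and 28.9% at P0. Of 16 other Sox genes, none was called between testis and ovary at E13 in limma, with the smallest adjusted p of 0.128 for Sox13 (0.71 ± 0.27), and 1 was called at P0, Sox21, at a log2 fold change of 1.03 ± 0.31 (adjusted p = 0.0125). Of 7 other measured Dmrt genes, 3 fell and none rose in testes at E13. Dmrta1 differed by -2.36 ± 0.34 (adjusted p = 4.83e-06), Dmrtc2 by -3.06 ± 0.56 (adjusted p = 0.000263) and Dmrtb1 by -2.48 ± 0.60 (adjusted p = 0.00647). At P0 Dmrt3 was the 1 that rose, by 3.12 ± 0.52 (adjusted p = 1.98e-05), beside 3 that fell. Whether these families differ from the 4 genes was not tested.

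In the developing ovary Dmrt1 fell, Sox8 fell and then rose, and no change of Sox9 was detected. The E13 ovaries used here are those labelled Foxl2+/-, so stage and label cannot be told apart between E13 and E16. Dmrt1 had signals of 0.114, 0.142 and 0.0593 in wild-type ovaries of E16, against 1.41, 2.22 and 3.81 in control ovaries of E13. The groups were far apart, with a log2 fold change of -4.39 ± 0.49 (adjusted p = 3.32e-07). The summed signal of the germ cell list was 14.9 to 18.9 at E16 and 16.9 to 31.5 at E13, and its part in the Dmrt1 difference was not tested. Between E16 and P0 Dmrt1 differed by -0.95 ± 0.49 (adjusted p = 0.133).

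In ovaries Sox8 had signals of 0.0896, 0.0847 and 0.0483 at E16, against 0.132, 0.175 and 0.216 at E13, a log2 fold change of -1.14 ± 0.37 that only just passed the test (adjusted p = 0.0473). It was lost without control arrays 2 or 3 of E13 or any 1 of the E16 arrays (adjusted p = 0.0538 to 0.262), and with the replicate block (adjusted p = 0.0538). From there its signals at P0, listed above, were higher by 2.58 ± 0.37 (adjusted p = 3.69e-06). Sox9 differed by -0.02 ± 0.36 between E13 and E16 (adjusted p = 0.975) and 0.06 ± 0.36 between E16 and P0 (adjusted p = 0.913), with 95% intervals of -0.75 to 0.70 and -0.67 to 0.79. Sox10 was lower at P0 than at E16, with log2 fold changes of -0.86 ± 0.30 in its brightest probe set (adjusted p = 0.0291) and -1.81 ± 0.68 in the second (adjusted p = 0.0415). The first of these calls was lost without E16 arrays 2 or 3 or any 1 of the P0 arrays (adjusted p = 0.0577 to 0.109), and under quantile normalization (-0.34, adjusted p = 0.346). The second probe set had signals of 0.0214 to 0.0292 at P0, near the pseudocount, and its call was not rerun under quantile normalization. The median of all probe sets differed by -0.36 between E16 and P0. Over the 8 probe sets, 2 were called lower at E16 than at E13, where 2.81% of all probe sets were, and at P0 against E16 1 was called higher and 2 lower, where 7.59% and 22.1% of all were. In testes the brightest probe sets of the 4 genes differed by -0.56 to 0.54 between E13 and P0, none past the test, and 1 of 8 probe sets was called lower at P0, the dimmest of Sox10, where 11.4% of all were.

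Loss of Foxl2 alone left every one of the 8 probe sets short of the threshold at every stage. None was called at E13, E16 or P0, where 2.06%, 0.407% and 0.604% of all probe sets were called in limma, and at an unadjusted p under 0.05 there were 1, 0 and 4. The log2 fold changes ran between -1.24 and 0.57 at E13, between -0.75 and 0.64 at E16 and between -0.95 and 1.03 at P0. At P0 Sox9 had signals of 0.494, 1.35 and 0.645 in Foxl2-null ovaries, against 0.789, 0.216 and 0.283 in wild-type ovaries. The groups overlapped, and the difference of 1.03 ± 0.36 (95% interval 0.30 to 1.76) had an adjusted p of 0.316, which became 0.0174 at a difference of 1.57 without the first wild-type array, the one with the signal of 0.789.

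The other members were not called either. Dmrt1 had signals of 0.0628, 0.106 and 0.172 in Foxl2-null ovaries of P0, against 0.0596, 0.0636 and 0.0252 in wild-type ovaries (log2 fold change 1.03 ± 0.49, adjusted p = 0.637). Sox8 had signals of 0.352, 0.166 and 0.246 in Foxl2-null ovaries, against 0.307, 0.595 and 0.604 in wild-type ovaries (log2 fold change -0.95 ± 0.37, adjusted p = 0.423), so its difference had the opposite sign to that of Sox9. Averaged over E13, E16 and P0, no member was called, beside 1.54% of all probe sets, and 3 of 8 had an unadjusted p under 0.05. These differences were 0.46 ± 0.21 for Sox9 (adjusted p = 0.293), -0.24 ± 0.21 for Sox8 (adjusted p = 0.645) and 0.56 ± 0.28 for Dmrt1 (adjusted p = 0.352). A value that misses the threshold does not show that the groups were alike.

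Genes of the same pathway did pass in Foxl2-null ovaries. Among the 14 loop and target genes of Sox9, 1 rose and 1 fell at E16 and 2 rose at P0, while 0 were called at E13, beside 0.66% of all genes called at E16, 0.825% at P0 and 1.4% at E13. Dhh rose by 1.92 ± 0.36 at E16 (adjusted p = 0.00581) and by 2.34 ± 0.36 at P0 (adjusted p = 0.000157), and the cystatin gene Cst9 by 1.96 ± 0.45 at P0 (adjusted p = 0.0235), a call lost under quantile normalization (1.87, adjusted p = 0.0613). Aard, a gene of early Sertoli cells, fell by 1.15 at E16 (adjusted p = 0.00738). In Foxl2+/- ovaries of E16 none of the 8 probe sets was called (unadjusted p under 0.05 for 0), beside 0.00667% of all, and the brightest ones differed from wild type by -0.56 to 0.85.

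In Wnt4-null ovaries Sox9 was lower at E15, and Dmrt1 was higher at P0. At E15 Sox9 had signals of 0.222 and 0.132 in Wnt4-null ovaries, against 0.67 and 0.435 in Wnt4+/- ovaries. The null ovaries were lower without overlap, at -1.60 ± 0.44 (adjusted p = 0.049), the 1 called probe set of 8, where 0.358% of all probe sets were called lower. Its other probe sets differed by -0.62 and -0.69 and did not pass (adjusted p = 0.442 and 0.649). With 2 arrays per group this call is at the threshold and was lost when any 1 of the 4 arrays was left out, at adjusted p = 0.0991 to 0.332. Sox8 was at 0.25 and 0.227 in Wnt4-null ovaries, against 0.0965 and 0.0847 in Wnt4+/- ovaries, above them without overlap but not past the test (1.31 ± 0.45, adjusted p = 0.146).

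The Dmrt1 difference at E15 rested on 1 array. It had signals of 0.082 and 0.945 in Wnt4-null ovaries, against 0.146 and 0.106 in Wnt4+/- ovaries. The second null array stood apart from the other 3, and the log2 fold change of 1.14 ± 0.60 (adjusted p = 0.443) became -0.55 without it and 2.83 (adjusted p = 0.00954) without the first. The same array had a summed germ cell signal of 32.3, against 10.5 in the other null array and 15 and 17.2 in the controls, and a summed signal of meiotic genes of 29.9, against 10.8 in the other null array and 14.9 and 17.7 in the controls. Their part in the Dmrt1 value was not tested.

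At P0 Dmrt1 was the member that rose without Wnt4. It had signals of 0.221, 0.133 and 0.362 in Wnt4-null ovaries, against 0.0596, 0.0636 and 0.0252 in wild-type ovaries. The groups did not overlap (log2 fold change 2.03 ± 0.49, adjusted p = 0.00342), and it was the 1 called of 8 probe sets, where 5.60% of all were called higher. The summed germ cell signal was 8.33 to 16.7 in the Wnt4-null ovaries, against 36.5 to 66.5 in wild-type ovaries, and the Sertoli sum was 31.1 to 36.1, against 11.8 to 14.3. The summed signal of adrenal cortex genes was 2.77 to 6.26 in Wnt4-null ovaries, against 0.0678 to 0.195 in wild-type ovaries, and that of 4 Leydig cell genes 8.86 to 18.4, against 2.38 to 3.21. The part of these cell types in the Dmrt1 difference was not tested. Sox9 had signals of 0.664, 0.505 and 0.764 in Wnt4-null ovaries, between the wild-type arrays of 0.789, 0.216 and 0.283, at 0.78 ± 0.36 (adjusted p = 0.172; 1.33 with adjusted p = 0.00886 without the first wild-type array). Sox8 differed by 0.34 ± 0.37 (adjusted p = 0.668). The change of the Wnt4-null effect on Sox9 between E15 and P0, a comparison added after the values were seen, was 2.38 ± 0.57 (adjusted p = 0.0235), the 1 called of 8 probe sets, where 0.382% of all were called higher. The call was lost without the second or the last wild-type array, the first or last Wnt4-null array of P0, the first E15 control or the second E15 null array (adjusted p = 0.0534 to 0.186). The E15 controls were Wnt4+/-, while at P0 Wnt4-null ovaries that were Foxl2+/- were set against wild type. So stage, strain mixture, the Foxl2 allele and the Wnt4 dose of the reference cannot be told apart in it.

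Of the 14 loop and target genes, 5 rose and 1 fell in Wnt4-null ovaries of P0, beside 16.9% of all genes called, with a median log2 fold change of 0.34 against -0.01 over all probe sets. Dhh rose by 4.92 ± 0.36 (adjusted p = 1.81e-11), Mmd2, a gene of the early testis, by 4.36 ± 0.42 (adjusted p = 2.5e-09) and Cst9 by 3.26 ± 0.45 (adjusted p = 2.89e-06).

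When Foxl2 was lost as well as Wnt4, Sox9 and Dmrt1 rose over the Wnt4-null ovary. Sox9 had signals of 2.31, 2.6 and 2.03 in double-null ovaries, against 0.664, 0.505 and 0.764 in Wnt4-null ovaries. Every double-null array was above every Wnt4-null array, at a log2 fold change of 1.84 ± 0.36 (adjusted p = 0.00412), and the other probe sets rose by 1.81 (adjusted p = 6.71e-05) and 1.68 (adjusted p = 0.0476). The brightest probe set was at adjusted p = 0.0539 without the second Wnt4-null array. Dmrt1 had signals of 1.27, 1.73 and 1.41 in double-null ovaries, against 0.221, 0.133 and 0.362 in Wnt4-null ovaries, likewise without overlap (2.67 ± 0.49, adjusted p = 0.00194). These are 4 called of 8 probe sets, where 0.280% of all were called higher. Sox8 had signals of 1.23, 1.83 and 1.3 in double-null ovaries, against 0.689, 0.751 and 0.441 in Wnt4-null ovaries, again without overlap but short of the threshold (1.21 ± 0.37, adjusted p = 0.146).

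Against the wild-type ovary the double-null ovary was higher in all 3 genes. All comparisons with wild type at P0 share the same wild-type arrays. Sox9 rose by 2.62 ± 0.36 (adjusted p = 1.04e-06), Sox8 by 1.55 ± 0.37 (adjusted p = 0.00192) and Dmrt1 by 4.70 ± 0.49 (adjusted p = 5.6e-09). Of 8 probe sets, 5 were called higher, where 8.41% of all were, and the brightest of Sox10 was at 0.75 ± 0.30 (adjusted p = 0.0777). Set against the testis of P0, none of the 8 probe sets was called in limma (unadjusted p under 0.05 for 1), beside 1.58% of all. Sox9 differed from the testis by -0.23 (95% interval -0.96 to 0.50), Sox8 by 0.04 (-0.71 to 0.78) and Dmrt1 by -1.66 (-2.65 to -0.68, adjusted p = 0.0698). The mean signal of the double-null ovaries was 85.5% of the testis mean for Sox9, 91.6% for Sox8 and 31.5% for Dmrt1, and for Dmrt1 the groups did not overlap.

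The summed Sertoli signal was 40.3 to 43.7 in double-null ovaries, against 31.1 to 36.1 in Wnt4-null ovaries and 47.2 to 69 in testes of P0, and the germ cell sum was 4.09 to 14.1 in double-null ovaries, 8.33 to 16.7 in Wnt4-null ovaries and 5.54 to 9.72 in testes. The list of Sertoli markers shares 5 genes with the list of Sox9 loops and targets. Of the 14 genes of that second list, 3 rose over the Wnt4-null ovary and none fell, beside 0.924% of all genes called: Ptgds by 2.68 ± 0.46 (adjusted p = 0.000842), Cyp26b1, which degrades retinoic acid, by 1.75 ± 0.35 (adjusted p = 0.00567) and Cst9 by 2.03 ± 0.45 (adjusted p = 0.0171). Of the ovarian antagonists 3 fell, Fst by 2.04 (adjusted p = 0.000268), the deleted Foxl2 itself by 2.85 (adjusted p = 0.00172) and Runx1 by 1.26 (adjusted p = 0.00934), and none rose.

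**Figure D2:**
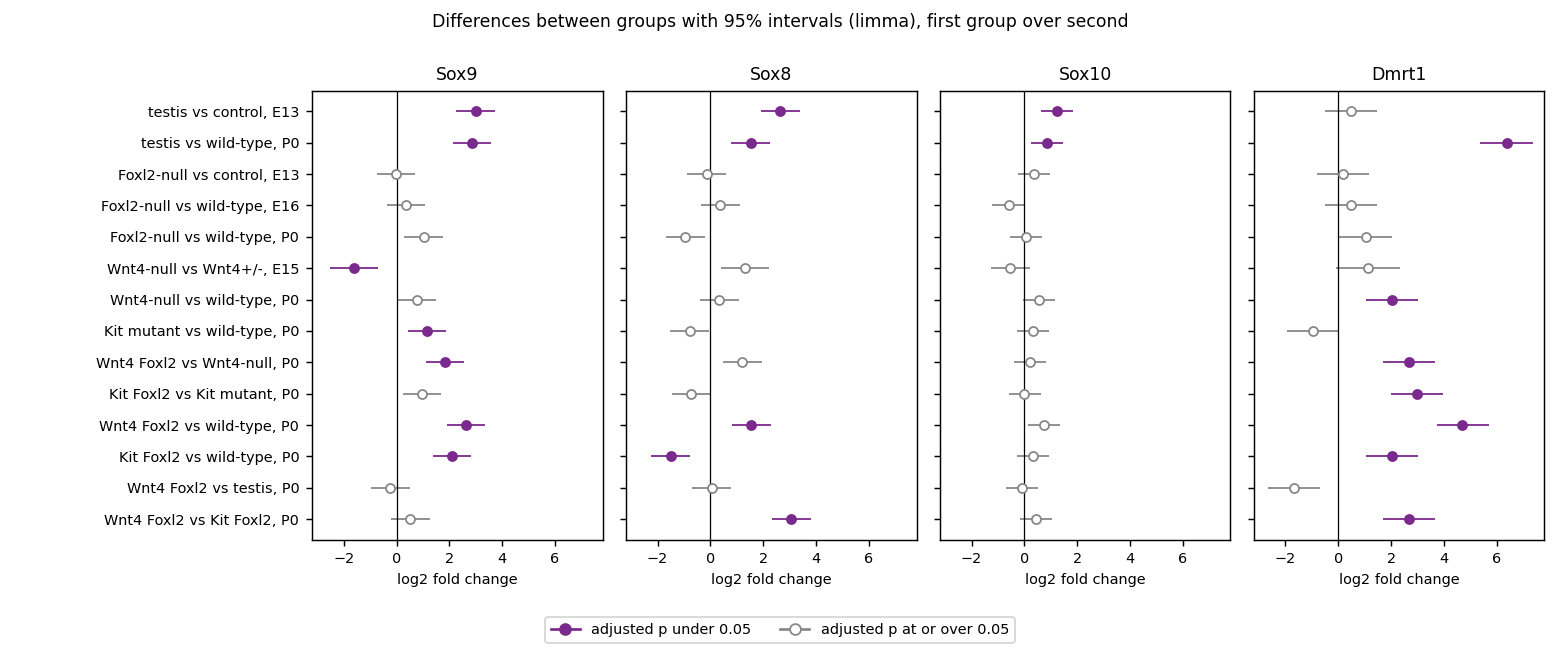
Log2 fold change of the first group over the second (horizontal axis, points) with its 95% interval (lines) for the brightest probe set of each gene in 14 comparisons; filled points passed the adjusted threshold of 0.05. Sox9 and Dmrt1 pass in the Wnt4 Foxl2 double-null ovary against the Wnt4-null ovary, at 1.84 and 2.67, and Sox8 goes in opposite directions in the double mutants against wild type, at 1.55 and -1.51.

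In the Kit mutant ovary Sox9 rose, and neither Dmrt1 nor Sox8 was called. Sox9 had signals of 0.701, 0.664 and 1.19 in Kit mutant ovaries, against 0.789, 0.216 and 0.283 in wild-type ovaries of P0. The groups overlapped through 1 wild-type array, and the log2 fold change was 1.15 ± 0.36 (adjusted p = 0.0169), with all 3 Sox9 probe sets called, 3 of 8 where 16.2% of all were called higher. The call was lost without the third Kit mutant array (0.88, adjusted p = 0.103) and without wild-type arrays 2 or 3 (adjusted p = 0.159 and 0.0823). Under quantile normalization it was 0.96 (adjusted p = 0.0511). The Sertoli sum was 18.5 to 22.9 in Kit mutant ovaries, against 11.8 to 14.3 in wild-type ovaries, and the sum of 7 granulosa and fetal ovary supporting cell genes was 40.5 to 49.2, against 27.4 to 31.1. The third Kit mutant array, the highest in Sox9, had an oocyte sum of 21.7, against 0.87 and 1.61 in the other Kit mutant arrays and 20.2 to 40.8 in wild-type ovaries. Their part in the Sox9 difference was not tested. Dmrt1 had signals of 0.0294, 0.0121 and 0.0188 in Kit mutant ovaries, the lowest group mean of the 15, at -0.95 ± 0.49 against wild type (adjusted p = 0.148). Sox8 differed by -0.79 ± 0.37 (adjusted p = 0.106, or 0.0393 at -1.11 without the first wild-type array).

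With Foxl2 lost as well as Kit function, Dmrt1 rose. It had signals of 0.223, 0.287 and 0.168 in Kit Foxl2 double-mutant ovaries, against 0.0294, 0.0121 and 0.0188 in Kit mutant ovaries. The lowest double mutant was far above the highest single mutant (2.98 ± 0.49, adjusted p = 0.000705). The single mutants lay near the pseudocount, and the value was 3.48 with a pseudocount of 0.1% of the array mean and 1.96 with 5%, past the threshold in both. This was the 1 called of 8 probe sets, where 0.256% of all were called higher. In the same double-mutant ovaries the germ cell sum was 0.198 to 0.956, against 1.48 to 7.85 in the single mutants, with Ddx4, the germ cell RNA helicase, at 7.21e-06 to 0.0335 in double mutants and 7.51e-06 to 0.195 in single mutants. Dazl, another germ cell RNA-binding gene, was at 0.0445 to 0.0931 in double mutants and 0.0688 to 0.277 in single mutants. The Sertoli sum was 13.6 to 16.3 in double mutants and 18.5 to 22.9 in single mutants. The part of these cell types in the Dmrt1 difference was not tested.

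The Sox9 difference from the single mutant was not called. It had signals of 1.92, 1.5 and 1.44 in Kit Foxl2 double-mutant ovaries, against 0.701, 0.664 and 1.19 in Kit mutant ovaries. The groups did not overlap, but the difference of 0.96 ± 0.36 did not pass (adjusted p = 0.284). Against wild type it rose by 2.10 ± 0.36 (adjusted p = 2.77e-05), and Dmrt1 by 2.03 ± 0.49 (adjusted p = 0.00176).

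Sox8 fell below wild type in these ovaries. Its signals were 0.171, 0.214 and 0.117 in Kit Foxl2 double-mutant ovaries, against 0.307, 0.595 and 0.604 in wild-type ovaries, lower without overlap at -1.51 ± 0.37 (adjusted p = 0.00197). So 4 probe sets were called higher than in wild type and 1 lower, where 17.4% and 11.0% of all were. The double mutants were also compared with each other, a comparison added after the values were seen. Wnt4 Foxl2 double-null ovaries exceeded Kit Foxl2 double mutants in Sox8 by 3.06 ± 0.37 (adjusted p = 9.31e-08) and in Dmrt1 by 2.67 ± 0.49 (adjusted p = 0.00011), while Sox9 differed by 0.52 ± 0.36 (95% interval -0.21 to 1.25, adjusted p = 0.353). Here 3 of 8 probe sets were called higher, the other one being the dimmest of Sox10 (adjusted p = 0.0251), for which 2 of the Kit Foxl2 arrays lay under the pseudocount, where 7.39% of all were called higher. The Sertoli sum was 40.3 to 43.7 in the ovaries null for Wnt4 and Foxl2, against 13.6 to 16.3 in Kit Foxl2 double mutants.

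Whether the loss of Foxl2 acted more strongly in one background than another was tested by interaction terms, and no member passed. The reference ovaries were Foxl2+/- in the Wnt4-null and Kit mutant backgrounds, and had both alleles in the wild-type background. Terms against the wild-type background therefore do not compare equal losses of Foxl2. For Sox8 the Foxl2 effect in the Wnt4-null background exceeded that in the wild-type background by 2.16 ± 0.52 (adjusted p = 0.0592), beside 0.273% of all probe sets called. It passed without the first wild-type array (2.48, adjusted p = 0.0196) or the first Foxl2-null array (2.42, adjusted p = 0.0408). It exceeded that in the Kit mutant background by 1.93 ± 0.52 (adjusted p = 0.125), beside 0.262% called. For Sox9 the terms were 0.82 ± 0.51 for Wnt4-null against wild type (adjusted p = 0.809) and -0.07 ± 0.51 for Kit mutant against wild type (adjusted p = 0.998). For Dmrt1 they were 1.64 ± 0.69 (adjusted p = 0.559) and 1.95 ± 0.69 (adjusted p = 0.585), the second beside 0.0178% called. The interaction with Wnt4 had 3 of the 8 probe sets at an unadjusted p under 0.05 and that with Kit had 1.

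**Figure D3:**
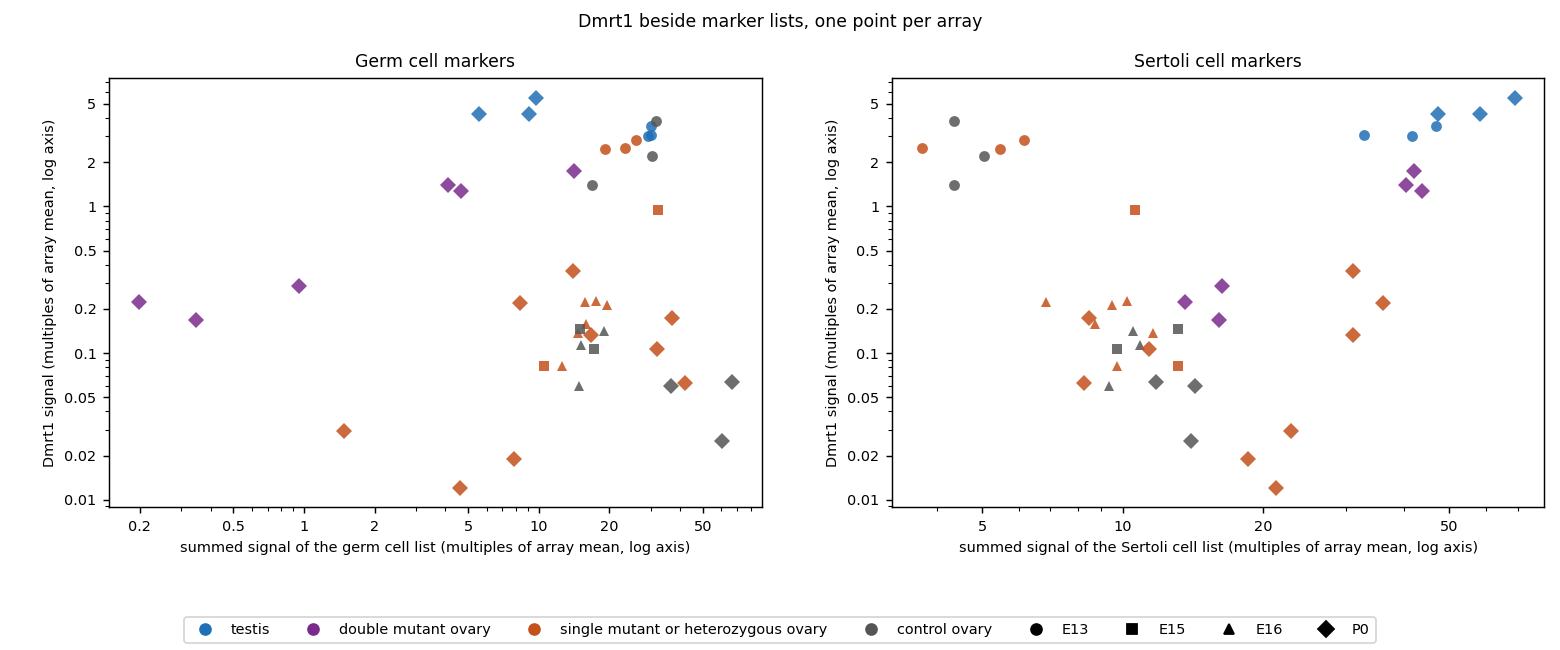
Dmrt1 signal on each array (vertical axis) against the summed signal of 6 germ cell genes (left) and of 7 Sertoli cell genes (right), both in multiples of the array mean on log axes; colour gives the kind of gonad and shape the stage. Groups of E13 are high in Dmrt1 at any Sertoli level, and Kit Foxl2 double-mutant ovaries hold Dmrt1 signals of 0.168 to 0.287 at germ cell sums of 0.198 to 0.956.

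The order of the group means of Sox9 began with testis of E13, testis of P0, Wnt4 Foxl2 double-null and Kit Foxl2 double-mutant ovaries, and the first 3 overlapped each other in turn. The Kit Foxl2 double mutants did not overlap the groups on either side of them. Below them 10 groups ran together, each overlapping the next, and Wnt4-null ovaries of E15 came last, without overlap with the group next above them. The Sox8 order began with Wnt4 Foxl2 double-null ovaries, testis of P0 and testis of E13, which overlapped in turn, and then stepped down to Wnt4-null and wild-type ovaries of P0. The Dmrt1 order began with the testes of P0 and E13, then Foxl2-null and control ovaries of E13, then Wnt4 Foxl2 double-null ovaries, which stood 2.31 on the log2 scale above the next group, the Wnt4-null ovaries of E15, without overlap.

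**Figure D4:**
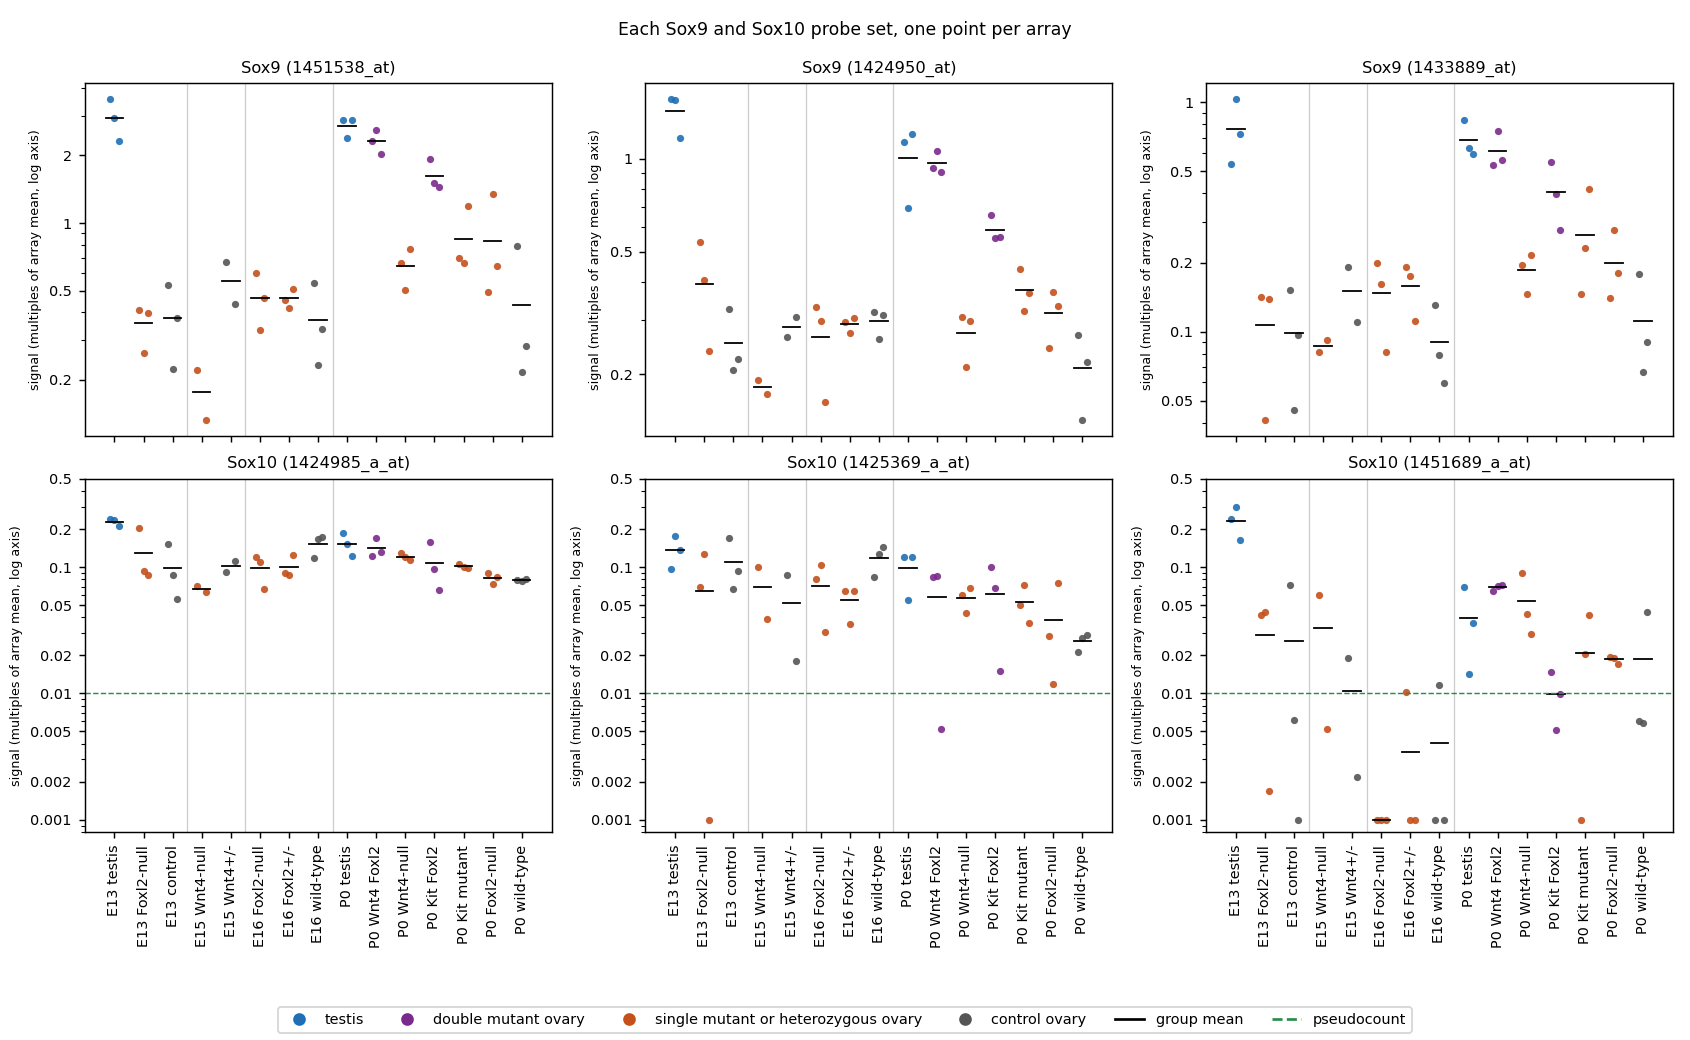
Signals of each Sox9 (top) and Sox10 (bottom) probe set on every array (vertical axis, multiples of the array mean, log axis), by stage and genotype, with a bar at the group mean; the dashed line is the pseudocount, and values below the bottom of the axis are drawn at its lower end. The 3 Sox9 probe sets share their high groups. Those of Sox10 all have their highest group mean in testes of E13 but differ in the order below it, and 2 of them reach the pseudocount.

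Across the 15 group means the 3 probe sets of Sox9 correlated with each other at 0.93 to 0.98, and those of Sox10 at 0.24 to 0.61. Sox8 correlated with the brightest probe set of Sox9 at 0.68, and Dmrt1 with it at 0.42 and with Sox8 at 0.47. These are descriptions over 15 points that share stages and arrays of 1 scaling. Among 10729 genes of at least median signal, those most like Sox9 over the group means were Rnf181 (r = 0.933), Plppr4 (0.918), Cyp26b1 (0.898), Cst9 (0.896) and 2610035D17Rik (0.894). Those most like Sox8 were Gsta4 (0.927), Gsta3 (0.926), the hedgehog receptor Ptch1 (0.918), Myh9 (0.903) and Hoxd9 (0.899). Those most like Dmrt1 were Cenpa (0.921), Nudt4 (0.917), Hhex (0.915), Anp32e (0.902) and Ncapd2 (0.898), and for Sox10 no gene exceeded 0.836 (Cebpa).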

How the data were processed

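RNA of single gonads was extracted with MELT, amplified linearly in 1 round and hybridised, 1 mouse to an array. The authors summarised the deposited intensities with plier and brought every array to a global mean, and the values are linear; the labels also name GCOS 1.3. No detection calls were used. Of 45071 probe sets 64 were controls and were left out; 34927 of the others named a single gene, 930 named several and 9150 named none, and 34723 single-gene probe sets were found in RefSeq. Each intensity was divided by the common array mean, and 0.01 was added before log2 was taken. All 43 arrays entered 1 limma model (version 3.58.1 in R 4.3.3), with a group mean for each of the 15 groups and a mean-variance trend. It left 28 residual degrees of freedom, or 36.8 with the moderated variance at the median. Tests were two-sided, and p-values were adjusted by Benjamini-Hochberg over 45007 probe sets with a threshold of 0.05. Tables were handled in Python 3.11.15 (numpy 2.4.6, pandas 2.3.3). The study's program Focus was not used here. The model was tested on simulated data.

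All 8 probe sets of the 4 genes are given, and the one with the highest mean stands for a gene. Genes of a pathway list are named by smallest adjusted p, up to 4 in a comparison; Amh, Map3k4, Ctnnb1, Sox13, Dmrt3, Foxd3, Erbb3, Ddx4 and Dazl were singled out after their values were seen. The genes most like a member had the highest Pearson correlation over group means among genes above the median signal. Members and lists were chosen with earlier results of these data known. Of 24 comparisons, 2 were added after the values were seen: the change of the Wnt4-null effect between E15 and P0, and the double mutants against each other. Replicates correlated at 0.922 to 0.982 over 41 pairs. Foxl2-null and control ovaries of E13 with the same number deviated together (r = 0.132 to 0.158, best with their own number in 3 of 3) and so were paired by the data. The main model did not use this pairing, and only the replicate block did. Other compared groups were not paired by this rule, which needs 3 pairs and so could not judge the E15 groups. P-values measure the spread between arrays. Alternatives were pseudocounts of 0.1% and 5% of the array mean, a filter on dim probe sets, quantile normalization, no trend, the compared arrays alone, 1 probe set per gene, the replicate block and leaving out each array.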

Additional observations from a re-analysis of the deposited data

Results flagged for a closer look

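The testis-ovary difference of Dmrt1 changed between E13 and P0 by 5.89 ± 0.69 on the log2 scale in limma's test of that change (adjusted p = 4.66e-07). Stage and genotype cannot be told apart in it, since the testes of P0 were Wnt4-null and the control ovaries of E13 were labelled Foxl2+/-. The Wnt4-null effect on Sox9 changed between E15 and P0 by 2.38 ± 0.57 (adjusted p = 0.0235) in the same kind of test, in a comparison added after the values were seen and lost without any 1 of 6 arrays. The E15 ovaries also had another strain mixture and were compared with Wnt4+/- controls. At P0, Wnt4-null ovaries that were Foxl2+/- were compared with wild type. So stage, strain, the Foxl2 allele and the Wnt4 dose of the reference cannot be told apart. No group held 4 to 10 arrays, so no array was tested for standing apart from its group.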

How the results depend on the processing

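These results cover the brightest probe set of each gene, with Sox10 in only some of the comparisons. Calls of the other member probe sets were not rerun under the alternatives. Of 80 results, 27 were called, and 19 of these were called in the same direction under every alternative run. A further 30 that were not called kept their direction and stayed uncalled. Values are log2 fold changes, with adjusted p in brackets, and the cause of each change was not tested. With a pseudocount of 5%, Wnt4-null against control ovary of E15 for Sox9 was -1.41 (0.0649), double-null ovary against testis for Dmrt1 -1.64 (0.0221), the Foxl2 effect in the Wnt4-null minus the wild-type background for Sox8 2.01 (0.032), that in the Wnt4-null minus the Kit background for Dmrt1 0.51, and ovary of E16 against E13 for Sox8 -0.85 (0.0928). The filter on dim probe sets gave 2.16 (0.0473) for Sox8 in the first of those background differences and dropped the brightest Sox10 probe set. Quantile normalization gave 0.56 (0.0827) for Sox10 and testis against ovary of P0, -0.34 (0.346) for Sox10 and ovary of P0 against E16, 0.96 (0.0511) for Sox9 in Kit mutant against wild type, and reversed 4 small values: 0.09 for Sox9 in Foxl2-null ovaries of E13, 0.07 for Sox8 in heterozygotes, 0.03 for Sox9 in the Foxl2 effect in the Kit minus the wild-type background, and 0.03 for Sox9 in testis of P0 against E13. Without the trend, Sox9 at E15 was -1.60 (0.0779) and Sox8 at E16 against E13 -1.14 (0.0608). With the compared arrays alone, testis against ovary for Sox10 was 1.23 (0.069) at E13 and 0.86 (0.0547) at P0, Sox9 -1.60 (0.0925) in Wnt4-null ovaries of E15 and 1.15 (0.0975) in Kit mutants, Sox8 -1.14 (0.0718) at E16 against E13, and the change of the Wnt4-null effect on Sox9 2.38 (0.0889); past the threshold were Sox8 in double-null against Wnt4-null ovaries at 1.21 (0.0286), Dmrt1 in double-null ovaries against testis at -1.66 (0.00213) and Dmrt1 in testes of P0 against E13 at 0.54 (0.0208). Called values of Dmrt1 against ovaries of low signal kept their call but moved in size, to 5.59 to 6.63 for testis over ovary of P0, 1.48 to 2.24 for Wnt4-null, 3.95 to 4.97 for double-null and 1.47 to 2.24 for Kit Foxl2 ovaries over wild type, and 1.96 to 3.48 for Kit Foxl2 over Kit mutants. With the replicate number as a block, Sox8 at E16 against E13 was -1.14 (0.0538), and no other call changed.

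Leaving out 1 array at a time gave these ranges where a call or a direction changed. Testis against ovary was 0.93 to 1.57 for Sox10 at E13 and 0.72 to 1.0 at P0, and the change between stages was -0.51 to 0.41 for Sox9. Testis of P0 against E13 was -0.12 to 0.81 for Sox8 and -0.26 to 0.04 for Sox9. Double-null ovary against testis was -0.45 to 0.47 for Sox8. In Foxl2-null ovaries of E13, Dmrt1 was -0.17 to 0.54, Sox8 -0.36 to 0.20 and Sox9 -0.34 to 0.26, and at P0 Sox9 was 0.61 to 1.57. Ovary of E16 against E13 was 0.37 to 1.01 for Sox10, -1.32 to -0.90 for Sox8 and -0.35 to 0.26 for Sox9, and P0 against E16 was -1.02 to -0.76 for Sox10 and -0.48 to 0.43 for Sox9. In Wnt4-null ovaries, Sox9 was -1.96 to -1.25 and Dmrt1 -0.55 to 2.83 at E15, and Sox9 0.41 to 1.33 at P0, with changes between these stages of 2.02 to 2.93 for Sox9 and -0.80 to 2.58 for Dmrt1. In Kit mutants Sox8 was -1.11 to -0.63 and Sox9 0.78 to 1.69. Double-null against Wnt4-null ovaries was 1.68 to 1.97 for Sox9. The Foxl2 effect in the Wnt4-null minus the wild-type background was 1.90 to 2.48 for Sox8, in the Kit minus the wild-type background -0.03 to 0.55 for Sox8 and -0.61 to 0.34 for Sox9, and in the Wnt4-null minus the Kit background -0.65 to 0.04 for Dmrt1. Where a Wnt4 group of E15 was left with 1 array, that array was assumed to vary like the other groups.

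With 1 probe set per gene, the share of features called was 0.742% against 2.06% for Foxl2-null ovaries of E13, 0.764% against 0.407% at E16 and 1.02% against 0.604% at P0; it was 1.12% against 0.658% for double-null over Wnt4-null ovaries, 1.46% against 0.811% for Kit Foxl2 over Kit mutants, 2.87% against 1.58% for double-null ovaries against testis, 10.1% against 6.62% for the change of the sex difference, and 0.517% against 0.273% and 0.456% against 0.262% for the background differences of Wnt4 with wild type and Kit. Quantile normalization moved the median of all probe sets to 0.03 (0.17 without it) for testis at P0, 0.07 (0.28) for Kit mutants, 0.08 (0.27) for Kit Foxl2 mutants against wild type, 0.01 (0.23) for E16 against E13, -0.03 (-0.36) for P0 against E16 and -0.02 (0.10) for Wnt4 at E15. It changed the share of higher calls to 36.1% (22.6% without it) for Foxl2-null ovaries of E13 and 43.5% (32.1%) over 3 stages, 68.4% (79.3%) for Wnt4 at E15, 45.5% (62.2%) for Kit mutants, 47.2% (61.2%) for Kit Foxl2 mutants against wild type, 52.5% (67.5%) for the Wnt4 and wild-type background difference, 46.0% (62.6%) for E16 against E13, 50.7% (25.6%) for P0 against E16, 41.7% (28.6%) for the change of the Wnt4 effect and 52.7% (40.3%) for the double mutants against each other. Without detection calls, signals of Sox10 near the pseudocount have no order.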
